A study of Rattus norvegicus with 115 samples.

Results

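Oxidative phosphorylation subunit genes were followed through 115 expression arrays of implanted 9L rat brain tumours and of the opposite brain hemisphere. The set holds every gene whose annotated symbol starts with Nduf, Uqcr, Atp5, Cox4, Cox5, Cox6, Cox7 or Cox8, or with Sdh followed by a, b, c or d, among probe sets annotated with a single symbol. It came to 90 of the 14217 genes measured. A gene with several probe sets was represented by the one brightest in mean log2 over all arrays, a choice that touched 10 members. By complex there were 40 members of complex I, 8 of complex II, 7 of complex III, 19 of complex IV and 16 of the ATP synthase. By role there were 70 common subunits, 11 assembly factors, 7 tissue-restricted or alternative isoforms, the ATP synthase inhibitor Atp5if1 and the pseudogene Cox6c-ps1. All 90 members entered every count, without a filter on low signal.

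The tumours were grown by injecting 100000 cultured cells of 9L, a rat glioblastoma line, into the right caudate nucleus of Fisher rats. After 10 days the rats were left untreated, or were irradiated with synchrotron X-rays. Microbeam radiotherapy (MRT) used narrow parallel beams with a peak dose of 400 Gy and a valley dose of 18 Gy, and the broad beam (BB) gave an even 17,4 Gy (written with a decimal comma, as the labels have it). Tumour and contralateral hemisphere were taken at 6 h, 48 h and 8 d from untreated rats, and at 6 h, 48 h, 8 d and 15 d from irradiated rats. The groups held 5, 4 and 4 untreated tumours, 9, 8, 7 and 4 MRT tumours, and 6, 4, 4 and 4 BB tumours, in order of time. On the contralateral side they held 5, 4 and 4 untreated, 9, 7, 6 and 4 MRT, and 6, 3, 4 and 4 BB samples. Every group, the untreated one included, carried a tumour, so no hemisphere came from a tumour-free rat. Untreated samples at 15 d were not analysed here.

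In oxidative phosphorylation, complexes I and II pass electrons from NADH and succinate to ubiquinone, complex III passes them to cytochrome c, and complex IV passes them to oxygen. Complexes I, III and IV pump protons across the inner mitochondrial membrane, and the ATP synthase uses the gradient to make ATP. Complex II, succinate dehydrogenase, is also an enzyme of the citric acid cycle and is coded by nuclear genes alone, while the other complexes combine nuclear and mitochondrial gene products. Neurons rely on this pathway for most of their ATP. Core subunits are here the catalytic or electron-carrying ones of complexes I and II, the core proteins and Rieske protein of complex III and the F1 subunits of the ATP synthase. The other common subunits, including every nuclear subunit of complex IV, are accessory. By this division 18 of the 70 common subunits were core and 52 accessory.

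The tissue markers fitted the labels in most arrays. The mean log2 intensity of 19 neuron markers was 11.18 to 11.96 in contralateral arrays and 7.25 to 11.18 in tumours. The mean of 9 tumour and mitosis markers was 8.00 to 12.19 in tumours and 5.42 to 9.64 in contralateral arrays. The highest contralateral values, up to 9.64, lay in the BB group at 15 d, and 1 untreated rat at 8 d stood at 8.71. Markers of skeletal and heart muscle, tissues that use Cox6a2, Cox7a1 and Cox8b, stayed between 5.57 and 6.72 everywhere. In bulk tissue, fewer cells of a type and less RNA per cell cannot be told apart. All 35 BB arrays had processing notes of their own, so an effect of BB and of that processing cannot be told apart within a tissue.

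A single array calls for caution before the contralateral results, and it was kept in the main fits. In the untreated contralateral group at 48 h, the array of rat 18 had 4141 genes more than 1 log2 unit from the mean of its group-mates, against at most 2546 on any of the other 114 arrays. Among the members 31 were that far away, 28 below and 3 above, while the other 114 arrays had 0 to 8 such members. Ndufab1, the acyl carrier protein of complex I, stood at 8.17 in rat 18 and at 12.35 to 12.50 in the other 3 rats. Ndufs1, the largest core subunit of complex I, stood at 7.48 against 10.95 to 11.48. The mean of the 70 common subunits was 11.40 in rat 18 and 12.06 to 12.09 in the other 3. Counts of members that used this group are therefore given also without this array.

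**Figure D1:**
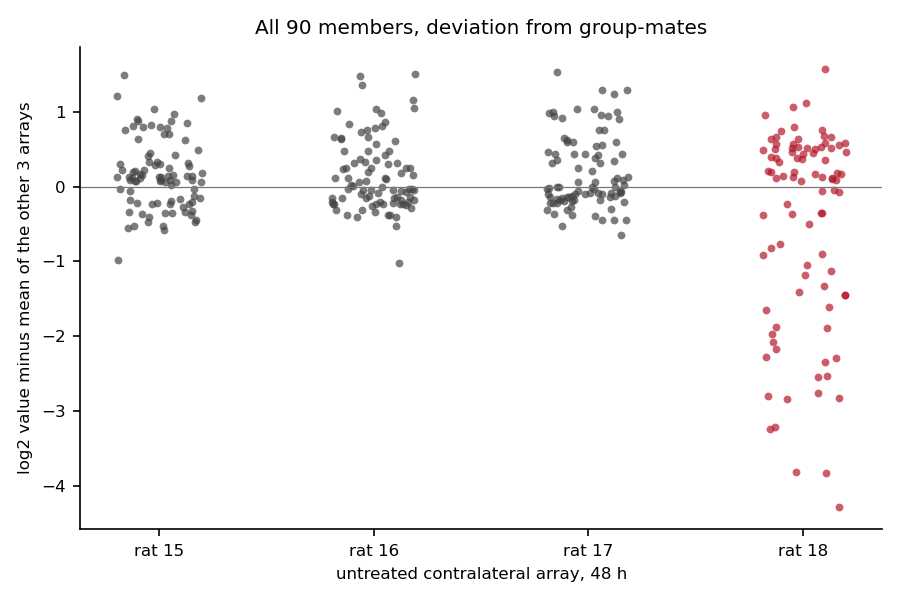
Deviation of all 90 members from the mean of the other 3 arrays (log2, vertical axis) in each of the 4 untreated contralateral arrays at 48 h (horizontal axis); each point is a member. In rat 18, 31 members lie more than 1 log2 unit away, 28 of them below, with Ndufab1 lowest at -4.28.

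Promoters of the pathway are known for sites of NRF1, ETS-family factors, YY1 and oestrogen-related receptors. The 300 bases around the annotated start (250 before, 50 after) were matched for 82 of the 90 members in RefSeq, rat build GRCr8, and searched on both strands. The motifs were the NRF1 palindrome, and the letters CCGGAAG for ETS, AAGATGG for YY1, TCAAGGTCA for oestrogen-related receptors and ACGTG for the core of the hypoxia response element. No motif contains another. An NRF1 match lay in 20.7% of the members' promoters and in 4.71% of all 27457 promoters. An ETS match lay in 30.5% against 9.22%, and a YY1 match in 24.4% against 7.3%. The hypoxia core was found in 25.6% against 19.7%, and the receptor match in 2.44% (2 promoters, Atp5mc3 and Sdhd) against 0.412%. Among the 64 common subunits with a promoter, 13 had an NRF1, 20 an ETS and 18 a YY1 match, and among 6 alternative isoforms the counts were 0, 0 and 1. A match here is a description of letters in this window, not of binding.

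The promoters of the 3 isoforms whose levels changed most are shown first, and those of 3 common subunits that moved with the tumours second. Capitals mark the motif matches, and a promoter with no capitals holds none of the 5 in this window. The isoforms were Ndufa4l2 (chr7:65241919-65242218, plus strand), Cox6b2 (chr1:78122621-78122920, plus strand) and Cox7b2 (chr14:37046831-37047130, plus strand). The common subunits were Sdha (chr1:30764303-30764602, plus strand), Sdhc (chr13:86097976-86098275, minus strand) and Uqcrc2 (chr1:184598990-184599289, plus strand).
Ndufa4l2: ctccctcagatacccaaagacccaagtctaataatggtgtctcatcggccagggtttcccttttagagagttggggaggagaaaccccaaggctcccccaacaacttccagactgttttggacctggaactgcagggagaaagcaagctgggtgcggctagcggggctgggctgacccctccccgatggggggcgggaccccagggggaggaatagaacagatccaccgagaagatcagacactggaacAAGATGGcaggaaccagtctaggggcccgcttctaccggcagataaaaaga
Cox6b2: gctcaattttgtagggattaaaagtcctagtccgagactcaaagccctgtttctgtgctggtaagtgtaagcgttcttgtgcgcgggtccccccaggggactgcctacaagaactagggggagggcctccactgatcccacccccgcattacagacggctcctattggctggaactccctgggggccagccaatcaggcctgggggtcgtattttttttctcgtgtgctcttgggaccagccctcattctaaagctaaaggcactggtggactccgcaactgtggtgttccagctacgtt
Cox7b2: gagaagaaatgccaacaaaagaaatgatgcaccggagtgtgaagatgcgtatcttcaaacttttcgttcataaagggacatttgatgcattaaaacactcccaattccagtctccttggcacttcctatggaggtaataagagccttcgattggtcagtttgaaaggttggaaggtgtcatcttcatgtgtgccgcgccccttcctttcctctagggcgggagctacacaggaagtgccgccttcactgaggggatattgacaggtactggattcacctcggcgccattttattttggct
Sdha: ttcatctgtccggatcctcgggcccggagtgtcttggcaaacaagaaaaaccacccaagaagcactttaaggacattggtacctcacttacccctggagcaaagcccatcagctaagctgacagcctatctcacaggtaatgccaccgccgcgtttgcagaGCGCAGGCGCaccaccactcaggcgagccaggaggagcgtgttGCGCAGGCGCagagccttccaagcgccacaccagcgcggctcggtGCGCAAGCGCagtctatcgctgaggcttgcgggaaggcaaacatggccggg
Sdhc: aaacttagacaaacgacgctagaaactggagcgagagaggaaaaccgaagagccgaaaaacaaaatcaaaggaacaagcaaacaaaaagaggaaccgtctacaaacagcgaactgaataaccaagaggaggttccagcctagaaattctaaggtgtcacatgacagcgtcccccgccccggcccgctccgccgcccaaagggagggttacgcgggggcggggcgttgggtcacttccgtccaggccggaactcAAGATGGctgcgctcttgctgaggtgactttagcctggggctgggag
Uqcrc2: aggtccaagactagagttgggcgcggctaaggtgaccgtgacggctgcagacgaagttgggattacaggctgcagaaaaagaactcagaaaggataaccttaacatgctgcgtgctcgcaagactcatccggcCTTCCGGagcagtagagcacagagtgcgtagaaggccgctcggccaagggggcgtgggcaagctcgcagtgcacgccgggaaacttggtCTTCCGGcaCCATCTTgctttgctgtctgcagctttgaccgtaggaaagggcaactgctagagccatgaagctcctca
Sdha held 3 NRF1 matches, the last across the start site. Uqcrc2 held 2 ETS matches and 1 YY1 match, Sdhc 1 YY1 match just after the start, and Ndufa4l2 1 YY1 match across it. Cox6b2 and Cox7b2 held none of the 5, and Ndufa4l2, whose level moved with the hypoxia targets below, held no ACGTG in this window. Atp5f1b, Cox7b and Ndufa4, common subunits that also differed between tumour and hemisphere, held none of the 5 either. The promoters shown therefore do not stand for isoforms and common subunits in general.

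In untreated tumours against the opposite hemisphere, 11 of 18 core subunits were lower and none higher, while accessory subunits were called in both directions. Of the 90 members, 26 were higher and 30 lower in tumour (limma over all 115 arrays, called at adjusted p under 0.05), where 81.1% of all genes were called, 40.5% higher and 40.6% lower. The median difference over the members was -0.03 log2, as it was over all genes. Of the 18 core subunits 0 were higher and 11 lower (median -0.24), while of the 52 accessory subunits 21 were higher and 14 lower (median 0.06). These counts depend on the scaling, since shifting all arrays to a common median moves every tumour difference by -0.26. Over the 90 members the split was 20 higher and 39 lower after quantile normalization (77% of all genes called). It was 10 higher and 61 lower after that shift (84.8%). Without rat 18 it was 22 higher and 40 lower, where 79.8% of all genes were called. Core subunits were 0 higher and 11 lower after quantile normalization and 0 higher and 18 lower after that shift. Accessory subunits were 15 higher and 19 lower after quantile normalization and 5 higher and 28 lower after the shift. Without rat 18 the core count was 0 higher and 13 lower, and the accessory count 17 higher and 19 lower.

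Complexes II and III held 6 of the 11 lower core subunits. Their counts were the same without rat 18 and after quantile normalization, at 0 higher and 3 lower of 4 and at 2 higher and 5 lower of 7. With a common median they were 0 and 4, and 1 and 5. In complex II, Sdha, the flavoprotein that oxidises succinate, stood at 10.79, 10.94, 11.28, 11.47 and 11.52 in untreated tumours at 6 h. It stood at 11.65, 11.79, 11.87, 11.93 and 12.00 in the contralateral samples of that time. The tumours were lower without overlap. Over the 3 times the difference was -0.68 ± 0.09 (SE, adjusted p = 4.97e-11, limma). The membrane anchors Sdhc (-0.44 ± 0.07) and Sdhd (-0.40 ± 0.07) were also lower, and the iron-sulfur subunit Sdhb was not called (0.08). A dimmer probe set of Sdhd gave -0.48.

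In complex III all 3 core members were lower, namely the core proteins Uqcrc2 (-0.47 ± 0.08) and Uqcrc1 (-0.24 ± 0.06) and the Rieske protein Uqcrfs1 (-0.23 ± 0.05). Of its small subunits Uqcr11 (-0.48 ± 0.07) and the hinge protein Uqcrh (-0.29 ± 0.07) were lower, while Uqcrq (0.62 ± 0.10) and Uqcr10 (0.24 ± 0.05) were higher. The value of Uqcrq was 0.40 without rat 18.

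In complex I 11 subunits were higher and 9 lower of 34 (median -0.01). Without rat 18 these counts were 9 and 15 (median -0.09), after quantile normalization 8 and 13, and with a common median 3 and 21. Ndufa11, an accessory subunit of its membrane arm, gave one of the clearest rises. Untreated tumours at 48 h stood at 11.22, 11.34, 11.49 and 11.61, and the contralateral samples at 10.52, 10.75, 10.83 and 11.04. These groups did not overlap, and the difference over the 3 times was 0.58 ± 0.07 (adjusted p = 4.32e-12, limma). Ndufc1 (0.51 ± 0.11; 0.28 without rat 18) and Ndufb1 (0.47 ± 0.09), also of the membrane arm, were higher. Ndufa8 (-0.59 ± 0.08) was lowest, followed by the core subunit Ndufs3 (-0.37 ± 0.10). The core subunits Ndufv1 (-0.26 ± 0.07) and Ndufv2 (-0.31 ± 0.10) of the NADH-oxidising module were lower too. Ndufs1 (-0.20 ± 0.16) and the accessory subunit Ndufb8 (-0.14 ± 0.09) were not called, but without rat 18 both were lower, at -0.51 ± 0.09 (adjusted p = 2.94e-07, limma) and -0.25 ± 0.08 (adjusted p = 0.00400). Ndufab1 turned likewise from -0.11 to -0.47. Ndufa1 (0.28), Ndufb2 (0.36) and Ndufa6 (0.17) were called higher with rat 18 and not without it, at 0.08, 0.12 and 0.08. Ndufa7 was 0.35 ± 0.08 in the probe set used and -0.89 in its other probe set, so its direction is not settled.

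Among 10 common subunits of complex IV, 3 were higher and 5 lower. These counts were 3 and 6 without rat 18, 2 and 6 after quantile normalization and 0 and 8 with a common median. Cox4i1, the ubiquitous regulatory subunit, was lower (-0.62 ± 0.10, adjusted p = 1.63e-08, limma), as were Cox5b (-0.21 ± 0.06), Cox8a (-0.27 ± 0.09; -0.42 without rat 18) and Ndufa4 (-0.37 ± 0.07). Cox7b (0.43 ± 0.12; 0.22 without rat 18), Cox6c (0.29 ± 0.04) and Cox6a1 (0.14 ± 0.05) were higher. Cox6a1 was at -0.12 when arrays were shifted to a common median. Cox5a was lower by the probe set used (-0.65 ± 0.22). That probe set is dim, and a bright one annotated with several symbols gave -0.45.

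The ATP synthase had 5 subunits higher and 3 lower of 15. These counts were 3 and 3 without rat 18 and after quantile normalization, and 1 and 8 with a common median. Atp5pb (0.21) and Atp5mpl (0.14) lost their calls without rat 18, and Atp5mf went from 0.31 to 0.15. The catalytic beta subunit Atp5f1b (-0.13 ± 0.04) and the rotating gamma subunit Atp5f1c (-0.39 ± 0.06) were lower, and the alpha subunit Atp5f1a was not called (0.07). The coupling factor Atp5pf (0.44 ± 0.07) and the stalk subunit Atp5pd (0.31 ± 0.06) were higher, while Atp5po was not called (0.14). Atp5mc3, one of the genes for the membrane ring, was lower (-0.27 ± 0.04). Of 11 assembly factors Ndufaf8 (0.62 ± 0.09) and Sdhaf2 (0.45 ± 0.07) were higher and Sdhaf3 (-0.62 ± 0.11) lower. The assembly factors were 2 higher and 5 lower without rat 18 and after quantile normalization, and 2 higher and 9 lower with a common median. The inhibitor Atp5if1 was not called (-0.07). The other probe set of Sdhaf2 gave -0.35, so its direction is not settled either.

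**Figure D2:**
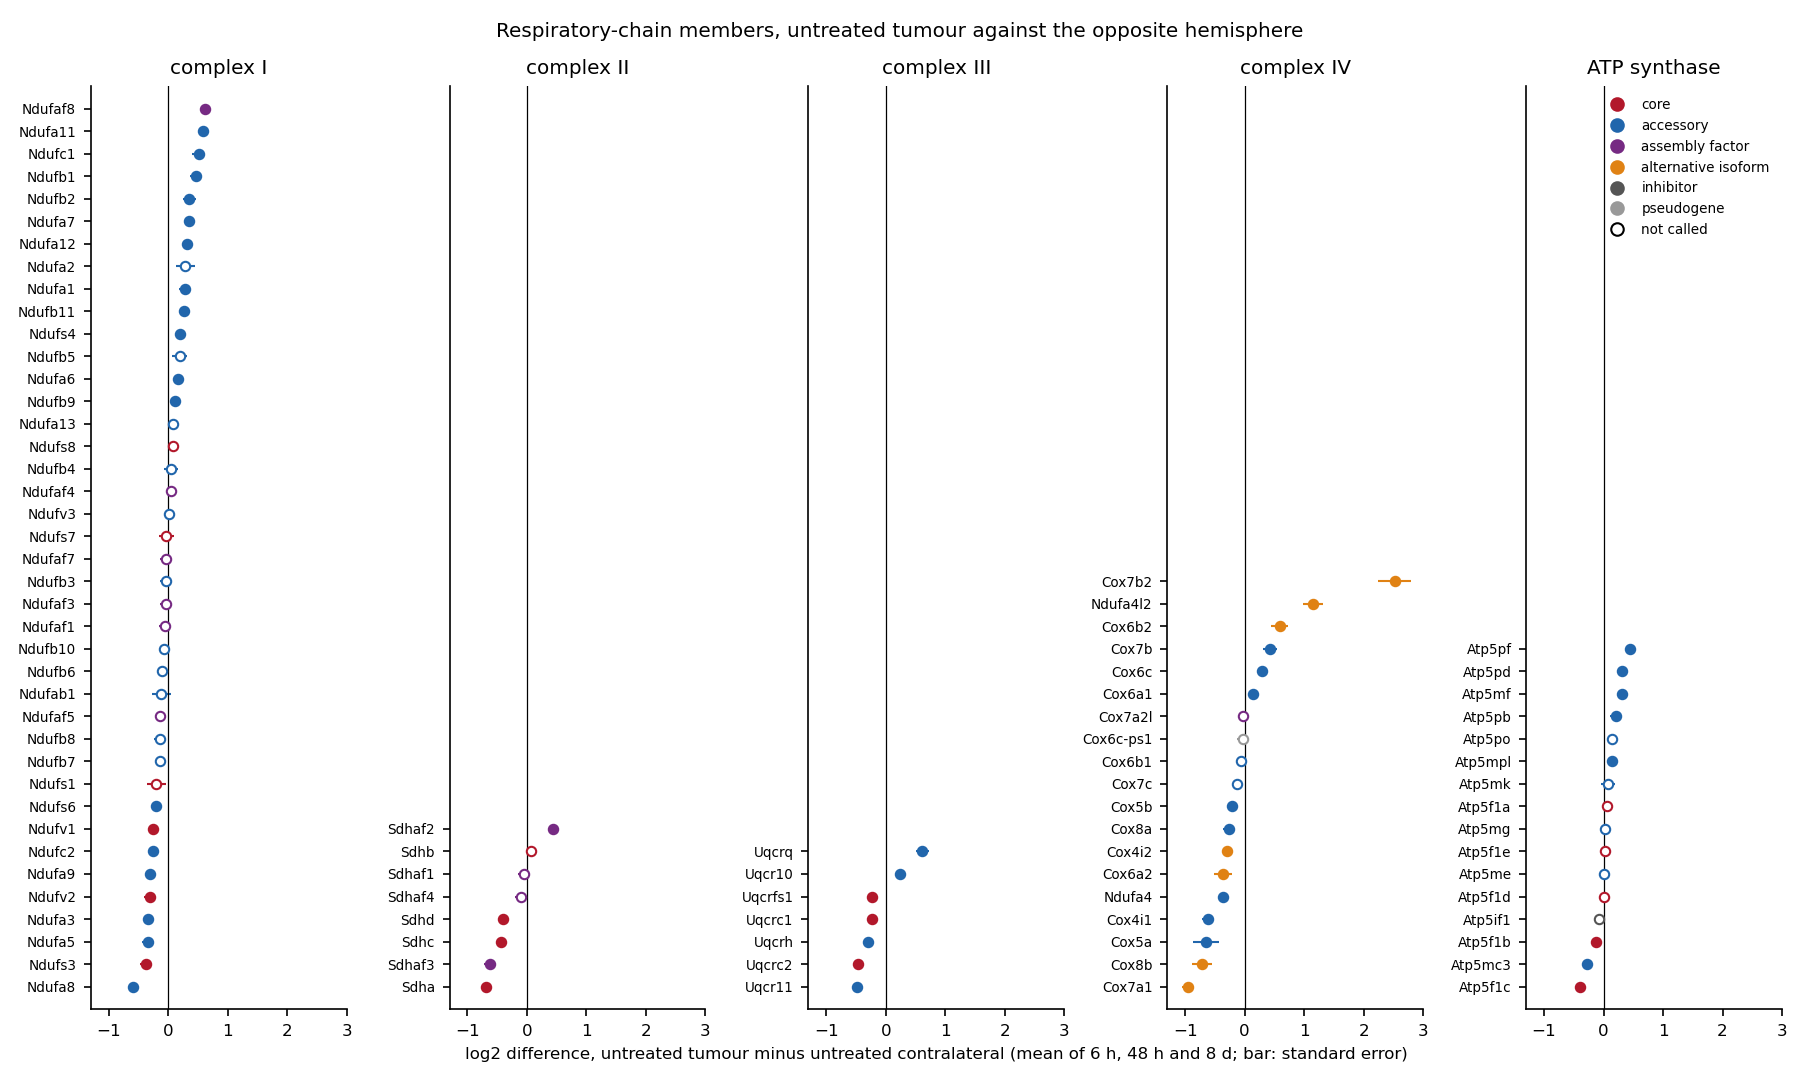
Difference between untreated tumour and untreated contralateral hemisphere (log2, horizontal axis; mean of 6 h, 48 h and 8 d) for each of the 90 members, by complex; bars are standard errors, colours the role, and filled points passed adjusted p under 0.05. Core subunits lie at or left of 0 when called, while the isoforms range from Cox7a1 at -0.95 to Cox7b2 at 2.52.

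The 3 largest differences of all members, by size, belonged to the alternative isoforms Cox7b2, Ndufa4l2 and Cox7a1, also without rat 18. The 7 alternative isoforms are variants of common complex IV subunits found in muscle, testis, lung or hypoxic cells, and 6 of the 7, all but Cox6a2, were among the dimmest 30% of genes. Fold changes of dim probe sets can be compressed. Cox7b2, a variant of Cox7b known from testis, stood between 5.91 and 8.52 in untreated tumours at 6 h and between 5.00 and 5.43 in the contralateral samples. Its difference over the 3 times was 2.52 ± 0.28 (adjusted p = 5.02e-14, limma). Ndufa4l2, a hypoxia-inducible relative of Ndufa4, was higher (1.14 ± 0.17, adjusted p = 2.7e-09), and Cox6b2, the testis form of Cox6b1, was higher by 0.59 ± 0.15. The striated muscle forms Cox7a1 (-0.95 ± 0.10, adjusted p = 1.53e-15), Cox8b (-0.72 ± 0.17; -0.59 without rat 18) and Cox6a2 (-0.36 ± 0.15) were lower. The lung form Cox4i2 was lower as well (-0.30 ± 0.08). Cox6a2 was at -0.31 and lost its call without rat 18.

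The neuron markers moved with these tissue differences, with 0 of 19 higher and 19 lower (median -1.95), and all 9 tumour and mitosis markers were higher (median 5.21). Their part in the members' differences was not tested. Other mitochondrial genes differed from list to list. In the citric acid cycle 3 of 14 genes were higher and 7 lower (median -0.15), with Idh3a, a subunit of the NAD-linked isocitrate dehydrogenase, at -1.07 ± 0.11. Of 73 mitochondrial ribosome genes 49 were higher and 8 lower (median 0.33). Among 11 biogenesis regulators 4 were higher and 6 lower. The coactivators Ppargc1a (-1.77 ± 0.26) and Ppargc1b (-1.46 ± 0.18) were lower, while Nrf1 (1.54 ± 0.13) and Tfam (0.72 ± 0.08), which drive nuclear and mitochondrial gene expression, were higher.

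Between 6 h and 8 d untreated tumours lost common subunits and gained Cox6b2 and Ndufa4l2. Of the 90 members 3 were higher and 16 lower at 8 d, where 29.2% of all genes were called, 16% higher and 13.2% lower. All 16 members that fell were common subunits, 3 core and 13 accessory, and 67 of the 70 common subunits had a negative difference (median -0.22 against 0.11 over all genes). The members that fell lay in complex I (9), complex IV (4), the ATP synthase (2) and complex III (1). Atp5f1b stood at 13.19, 13.24, 13.45, 13.51 and 13.52 at 6 h and at 12.97, 13.06, 13.07 and 13.09 at 8 d. The times did not overlap (-0.34 ± 0.07, adjusted p = 0.00104, limma). Ndufb6 (-0.43 ± 0.11), Ndufa3 (-0.65 ± 0.18), Ndufs7 (-0.45 ± 0.14) and Cox5b (-0.40 ± 0.12) fell as well, and Cox5a fell by 1.27 ± 0.33 (-0.40 in its bright probe set with several symbols).

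Neuron markers fell over the same interval in 18 of 19 cases (median -2.12), with array means of 10.09 to 11.18 at 6 h and 7.91 to 9.23 at 8 d. With the neuron marker mean of each array as a covariate, 1 member was higher and 1 lower, and the core median turned to 0.11. Only 2.79% of all genes were then called. The marker means did not overlap between the times, so this fit cannot tell time and neuron content apart. Sdhaf2 rose by 0.60 ± 0.13. Ndufa4l2 stood at 6.88, 6.94, 6.99, 7.37 and 7.99 at 6 h and at 8.39, 8.64, 8.65 and 8.78 at 8 d. Every 8 d tumour was above every 6 h tumour (1.38 ± 0.34, adjusted p = 0.00266, limma), a call lost with the neuron covariate. Cox6b2 stood at 5.43 to 5.64 at 6 h and at 6.55, 6.94, 7.49 and 8.16 at 8 d. Its rise of 1.76 ± 0.29 (adjusted p = 4.94e-05) kept its call under all 4 alternatives and without any of the 9 tumours. Of 10 hypoxia targets 9 rose over this interval (median 1.65), Car9, a carbonic anhydrase induced by hypoxia, by 3.55 ± 0.40. Their part in the isoforms' rise was not tested.

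**Figure D3:**
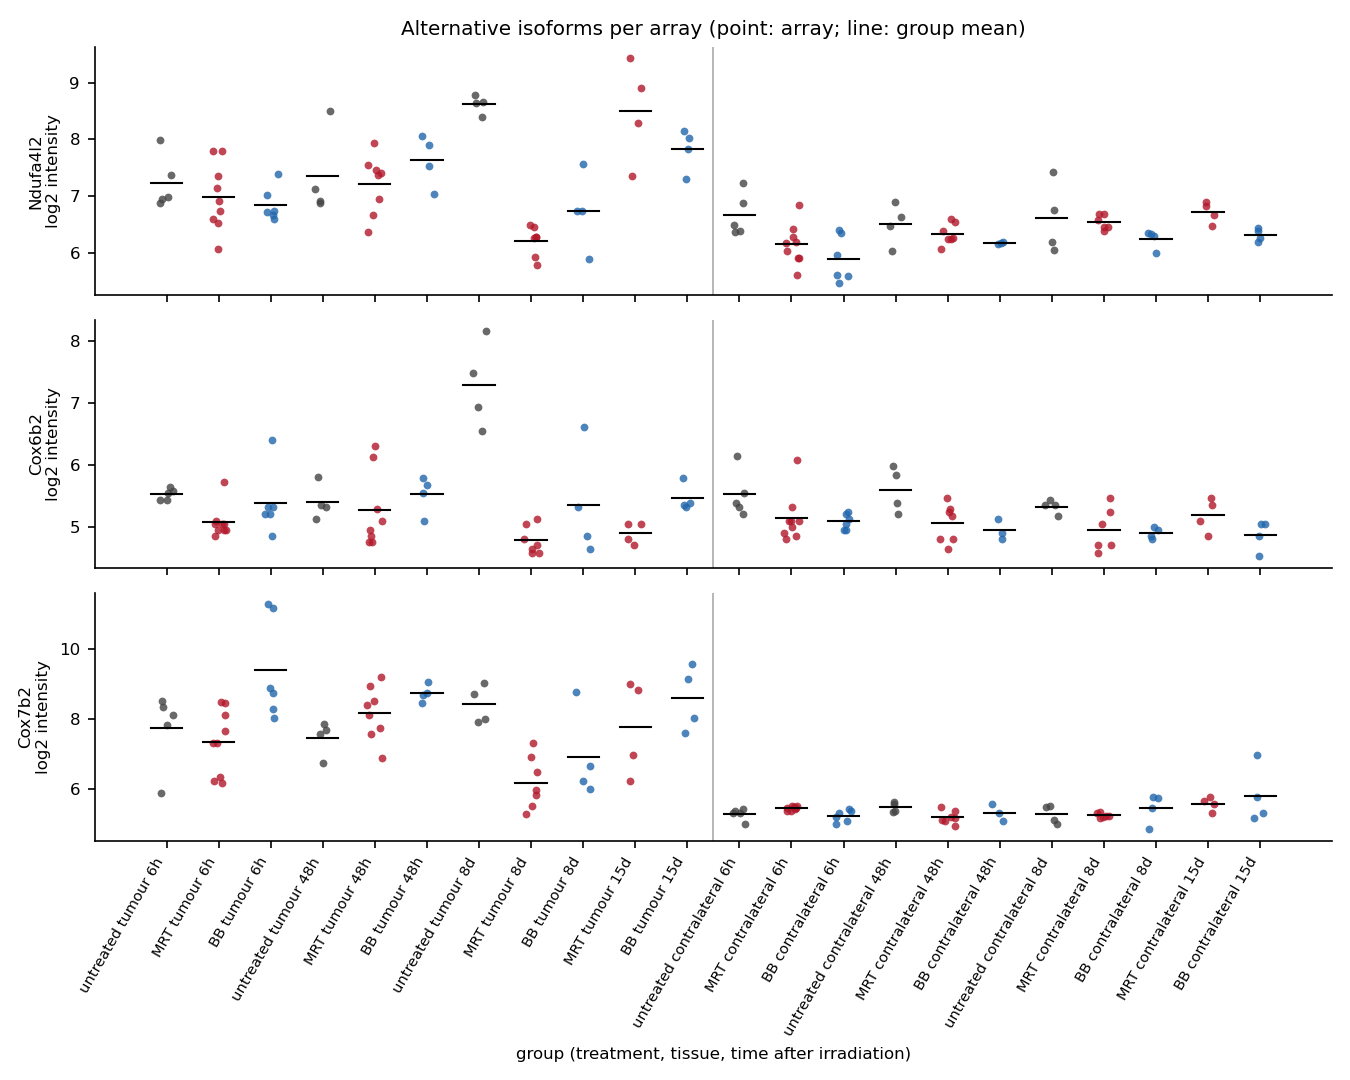
Log2 intensity (vertical axes) of Ndufa4l2, Cox6b2 and Cox7b2 in every array of the 22 groups (horizontal axis; grey untreated, red MRT, blue BB; tumours left of the vertical line, contralateral right); lines are group means. Every MRT tumour at 8 d lies below every untreated tumour at 8 d in all 3 genes, and at 15 d Ndufa4l2 lies at 7.35 to 9.43 in the MRT group while Cox6b2 lies at 4.70 to 5.04.

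Early after microbeams 0 members were called in tumours at 6 h and 3 at 48 h. At 6 h, 0 of 90 members were called in MRT against untreated tumours (limma; 3 at an unadjusted p under 0.05, and 0 under each alternative), where 1.42% of all genes were called, 1.01% higher and 0.408% lower. At 48 h 2 members were higher and 1 lower, against 2.35% of all genes, 1.86% higher and 0.485% lower. Cox6a2, the heart and skeletal muscle form of Cox6a1, stood at 7.04, 7.52, 7.88 and 8.10 in untreated tumours and at 8.32 to 9.54 (median 8.98) in the 8 MRT tumours. The groups did not overlap (1.28 ± 0.24, adjusted p = 0.00112), and the call held under all 6 alternatives and without any untreated tumour. Ndufa13, an accessory subunit of complex I, rose by 0.33 ± 0.09, and Cox4i2 fell by 0.40 ± 0.11. Both calls were lost under either change of normalization, with only the compared groups in the fit, and without the untreated tumour of rat 16 or rat 17.

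In BB tumours at 48 h, set against the same untreated samples, 2 members were higher and 1 lower, where 2.6% of all genes were called, 1.37% higher and 1.22% lower. Cox6a2 stood at 8.46, 8.65, 8.74 and 9.12, above every untreated tumour (1.11 ± 0.28, adjusted p = 0.0207, lost after quantile normalization). Ndufa13 was higher by 0.39 ± 0.11 and Cox4i2 lower (-0.59 ± 0.13). The MRT and BB comparisons share the 4 untreated tumours. The count depends on single tumours, for it was 0 without rat 16 and 0 higher and 1 lower without rat 17 or the BB tumour of rat 50. MRT against BB at 48 h had 0 members called and 0% of all genes (limma; 0 members at an unadjusted p under 0.05). In the BB tumour of rat 53 the Gapdh signal differed by 2.35 log2 between the transcript ends, against at most 0.84 on any other array. This array was among those left out in turn, over which the count of BB against untreated tumours ran from 0 to 3. The part of its RNA quality in the BB results at 48 h was not tested as such.

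At 6 h BB tumours were higher than untreated ones in 8 of 11 assembly factors and lower in 6 of 18 core subunits. Of 90 members 15 were higher and 7 lower, where 2478 of 14217 genes were called, 10.3% of all genes higher and 7.09% lower. Assembly factors were 8 higher and 0 lower of 11 (median 0.43), core subunits 0 higher and 6 lower of 18, and accessory subunits 5 higher and 1 lower of 52. Sdhaf4, which helps flavinated Sdha into complex II, stood at 9.57, 9.76, 9.78, 9.85 and 9.88 in untreated and at 9.83 to 11.30 (median 10.28) in 6 BB tumours. The groups overlapped only at the margin (0.66 ± 0.15, adjusted p = 0.00257, limma). Sdhaf3 (0.80 ± 0.20), Ndufaf4 (0.49 ± 0.12) and Ndufaf5 (0.43 ± 0.11) were higher as well. Atp5f1d, the delta subunit of the ATP synthase, stood at 12.23 to 12.43 in untreated tumours and at 11.55 to 12.05 (median 11.94) in BB tumours. It was lower without overlap (-0.41 ± 0.08, adjusted p = 0.000339), and so were Ndufv1 (-0.43 ± 0.11) and Ndufb10 (-0.44 ± 0.12). Ndufs7 was lower with a small overlap (-0.54 ± 0.12).

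These BB calls at 6 h rest on the shared estimate of spread. With only the compared groups in the fit, 0 members were called (24 genes in all), and without the untreated tumour of rat 5 the count was 7 higher and 6 lower. No BB tumour was left out here, as this was done only in groups of at most 5. The BB tumours differed among themselves, with median member deviations from group-mates of -0.29 (rat 49) to 0.41 (rat 48). In rat 48, 7 members lay more than 1 log2 unit above its group-mates. Arrays shifted to a common median, a shift of 0.10, gave 33 higher and 4 lower, where 23.2% of all genes were called. The core was then at 1 and 3, accessory subunits at 20 and 1 and assembly factors at 9 and 0. With the neuron covariate (22.7% of all genes called) the core was 4 higher and 4 lower, accessory subunits 14 and 1 and assembly factors 5 and 0. With the Gapdh signal difference between transcript ends as a covariate, the members were 10 higher and 6 lower (14.6% of all genes called). The core was then at 0 and 5, accessory subunits at 3 and 1 and assembly factors at 6 and 0. Of 73 mitochondrial ribosome genes 27 were higher and 1 lower in the same comparison.

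MRT and BB tumours at 6 h differed in 5 members higher and 30 lower after MRT, where 15.7% of all genes were called, 5.54% higher and 10.2% lower. Accessory subunits were 0 higher and 20 lower of 52, core subunits 5 higher and 1 lower of 18, and assembly factors 0 higher and 6 lower of 11. Ndufa6, an accessory subunit of complex I, stood at 11.71 to 12.21 (median 11.95) in 9 MRT tumours and at 12.01 to 13.11 (median 12.47) in 6 BB tumours. MRT was lower with some overlap (-0.55 ± 0.10, adjusted p = 0.000237, limma). Ndufs4 (-0.38 ± 0.07), Sdhaf4 (-0.69 ± 0.13) and Cox7b2 (-2.05 ± 0.49) were lower too. Ndufs7 (0.36 ± 0.11), Atp5f1b (0.20 ± 0.06), Atp5f1d (0.22 ± 0.07), Uqcrc1 (0.28 ± 0.09) and Ndufv1 (0.29 ± 0.10) were higher. Arrays shifted to a common median gave 1 higher and 37 lower (17.9% of all genes called). The core was then at 1 and 1 and accessory subunits at 0 and 25. With the Gapdh covariate the count was 4 higher and 21 lower (12.6% of all genes called). The core was then at 4 and 0 and accessory subunits at 0 and 12. After quantile normalization (13.9% of all genes called) the core was 6 higher and 1 lower and accessory subunits 1 and 14. With the neuron covariate (17.1%) the direction of the core turned, to 2 higher and 6 lower, and accessory subunits were 0 and 23. The mitochondrial ribosome moved the same way, with 1 of 73 genes higher and 39 lower, and the processing notes of the BB arrays apply here in full. No array of either group was left out in turn, so the weight of single BB tumours in these counts is not known. A fit with only the compared groups was not run here either. For BB against untreated tumours at 6 h that fit left 0 members called, so these counts may also rest on the shared estimate of spread.

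**Figure D4:**
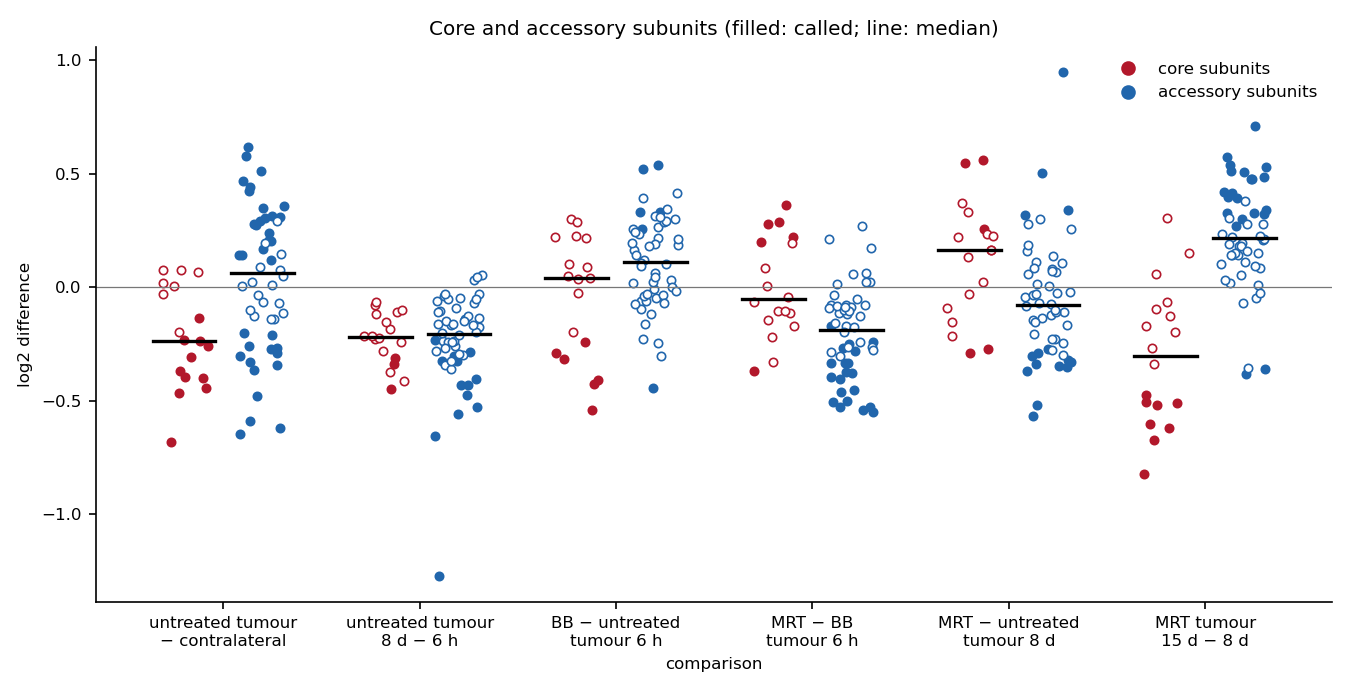
Log2 difference (vertical axis) of the 18 core (red) and 52 accessory (blue) subunits in 6 comparisons (horizontal axis); filled points were called and lines are medians. Core and accessory medians part in the untreated tumour against contralateral comparison (-0.24 and 0.06) and in MRT tumours between 8 d and 15 d (-0.30 and 0.22), and also in MRT against untreated tumours at 8 d (0.17 and -0.08). The tumour against contralateral values include the array of rat 18.

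At 8 d after microbeams the tumours were lower in the 3 tumour isoforms and higher in complex II than untreated tumours of that time. Of 90 members 10 were higher and 16 lower, where 47.8% of all genes were called, 21.8% higher and 26.1% lower. The split was 16 higher and 14 lower after quantile normalization (48.9% of all genes called). It was 12 higher and 14 lower with a common median (46.8%). Ndufa4l2 stood at 8.39, 8.64, 8.65 and 8.78 in untreated and at 5.78 to 6.49 (median 6.29) in 7 MRT tumours. Cox6b2 stood at 6.55, 6.94, 7.49 and 8.16 against 4.58 to 5.13 (median 4.70). In both genes the groups were far apart. The differences were -2.40 ± 0.32 for Ndufa4l2 (adjusted p = 5.04e-08, limma) and -2.50 ± 0.27 for Cox6b2 (adjusted p = 8.31e-10), and both held under all 6 alternatives. Cox7b2 fell by 2.23 ± 0.58 (adjusted p = 0.00146), from 7.92, 8.01, 8.72 and 9.03 to 5.29 to 7.31, a call lost with the neuron covariate.

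Complex II subunits were 3 higher and 0 lower of 4 after MRT at 8 d (median 0.46). Sdhc stood at 11.21, 11.42, 11.44 and 11.47 in untreated tumours and at 11.78 to 12.16 (median 11.88) after MRT. Sdhd stood at 11.21, 11.28, 11.30 and 11.44 against 11.77 to 12.05 (median 11.80). Neither gene's groups overlapped, and the differences were 0.55 ± 0.13 (adjusted p = 0.000337, limma) and 0.56 ± 0.13 (adjusted p = 0.000547). Both held under all 7 alternatives, and the other probe set of Sdhd gave 0.71. Sdhb was higher by 0.26 ± 0.09 (adjusted p = 0.0157), from 11.92 to 12.08 up to 12.16 to 12.41, and lost its call with the neuron covariate and without 2 of the 4 untreated tumours. Sdha stood at 10.89, 11.15, 11.16 and 11.17 in untreated tumours and at 11.24 to 11.88 (median 11.41) after MRT, and was not called. The assembly factor Sdhaf1, which protects the iron-sulfur subunit, was higher by 0.34 ± 0.10.

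In the other complexes 4 subunits were higher and 13 lower at 8 d. Complex I subunits were 1 higher and 8 lower of 34 (4 and 5 after quantile normalization, 2 and 6 with a common median), complex III 0 of 7 either way (2 and 0, and 1 and 0), complex IV 3 higher and 2 lower of 10 and the ATP synthase 0 higher and 3 lower of 15. Atp5pf stood at 12.55, 12.70, 12.76 and 12.82 in untreated tumours and at 11.90 to 12.37 (median 12.15) after MRT. It was lower without overlap (-0.57 ± 0.12, adjusted p = 0.000187, limma). Ndufb9 (-0.34 ± 0.07), Cox6a1 (-0.37 ± 0.08), Cox6c (-0.32 ± 0.08), Atp5pd (-0.30 ± 0.08) and Ndufa11 (-0.52 ± 0.12) fell without overlap too and held under all 7 alternatives. Cox6a2 (0.83 ± 0.24), Cox5a (0.95 ± 0.31), Cox8a (0.34 ± 0.12), Cox5b (0.32 ± 0.12) and Ndufa3 (0.51 ± 0.16) were higher. Cox5b and Cox8a lost their calls with the neuron covariate and without rats 37 and 38, and Ndufa3 with the neuron covariate. The bright Cox5a probe set with several symbols gave 0.64. Some genes had only such probe sets and stand outside the counts. Of these, Ndufa10 gave 1.07 and Atp5mc1 0.85, while Atp5mc2 gave -0.53, Uqcrb -0.42, and Cox7a2 and Ndufs5 -0.08 each. These differences were not tested.

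The cell markers also differed at 8 d. Of 19 neuron markers 13 were higher after MRT and 0 lower (median 1.32), all 8 macrophage markers were higher (median 2.27), and all 9 tumour and mitosis markers were lower (median -1.67). Of 10 hypoxia targets 0 were higher and 9 lower (median -1.56). With the neuron covariate the members were 5 higher and 15 lower, where 32.7% of all genes were called. Without rats 37 and 38, which had the lowest tumour markers of the MRT group, they were 7 higher and 17 lower (38.9%). The part of macrophages and of hypoxia in these results was not tested.

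BB tumours at 8 d changed in fewer members, 1 higher and 8 lower, where 22.9% of all genes were called, 8.36% higher and 14.5% lower. Quantile normalization gave 4 higher and 5 lower (21.6% of all genes called) and a common median 3 higher and 4 lower (22.2%). Ndufa4l2 stood at 5.88, 6.74, 6.74 and 7.56, below every untreated tumour (-1.89 ± 0.36, adjusted p = 0.000316, limma). Cox6b2 stood at 4.64, 4.86, 5.32 and 6.61, overlapping the lowest untreated tumour (-1.93 ± 0.31, adjusted p = 2.74e-05). Both calls held under all 5 alternatives and without any single array. Atp5pd (-0.45 ± 0.09), Cox6a1 (-0.36 ± 0.09), Atp5pf (-0.44 ± 0.14) and Ndufa11 (-0.42 ± 0.14) were lower, and Cox5a was higher (1.51 ± 0.35; 0.50 in its bright probe set). Atp5pf and Ndufa11 lost their calls with a common median and with only the compared groups. Without the BB tumour of rat 55 the count was 1 higher and 3 lower. Complex II had 0 of 4 subunits called (median 0.14). These values share the 4 untreated tumours with the MRT comparison and with the growth comparison above. MRT against BB at 8 d called 1 member, against 1.27% of all genes, 0.985% higher and 0.281% lower. This was Uqcrfs1, at 12.00 to 12.26 (median 12.16) after MRT and 11.63, 11.84, 11.94 and 11.94 after BB (0.30 ± 0.08, adjusted p = 0.0319, limma), lost under either change of normalization, without rats 37 and 38, and without the BB tumour of rat 54, 56 or 57. Without the BB tumour of rat 55 the count was 3 higher and 1 lower.

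In MRT tumours 8 of 18 core subunits fell from 8 d to 15 d, and 19 of 52 accessory subunits rose. Of 90 members 23 were higher and 13 lower at 15 d, where 27.9% of all genes were called, 16.1% higher and 11.8% lower. Core subunits were 0 higher and 8 lower of 18 (median -0.30), and accessory subunits 19 higher and 2 lower of 52 (median 0.22). After quantile normalization these counts were 1 and 8, and 22 and 2, and a common median left them as they were. With the neuron covariate they were 0 and 7, and 26 and 2, where 26.7% of all genes were called. Without rats 37 and 38 they were 0 and 5, and 17 and 2, against 17.3% of all genes.

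Complex II fell in all 4 subunits (median -0.57). Sdhd stood at 11.77 to 12.05 in the 7 tumours at 8 d and at 10.73, 11.10, 11.13 and 11.24 at 15 d. Sdhb stood at 12.16 to 12.41 and then at 11.47, 11.76, 11.81 and 11.93. Sdhc stood at 11.78 to 12.16 and then at 10.93, 11.36, 11.42 and 11.55. None of these genes overlapped between the times. The differences were -0.82 ± 0.13 for Sdhd (adjusted p = 1.96e-05, limma), -0.52 ± 0.09 for Sdhb (adjusted p = 4.62e-05) and -0.62 ± 0.13 for Sdhc (adjusted p = 0.000333), each called under all 6 alternatives. Sdha fell by 0.50 ± 0.17 (adjusted p = 0.0257), lost with the neuron covariate and without rats 37 and 38. As the MRT tumours at 8 d also stand in the comparison with untreated tumours, the rise and the fall of complex II share those 7 arrays. The mean of the 4 genes was 11.45 in untreated tumours at 8 d, 11.88 in MRT tumours at 8 d and 11.27 at 15 d.

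**Figure D5:**
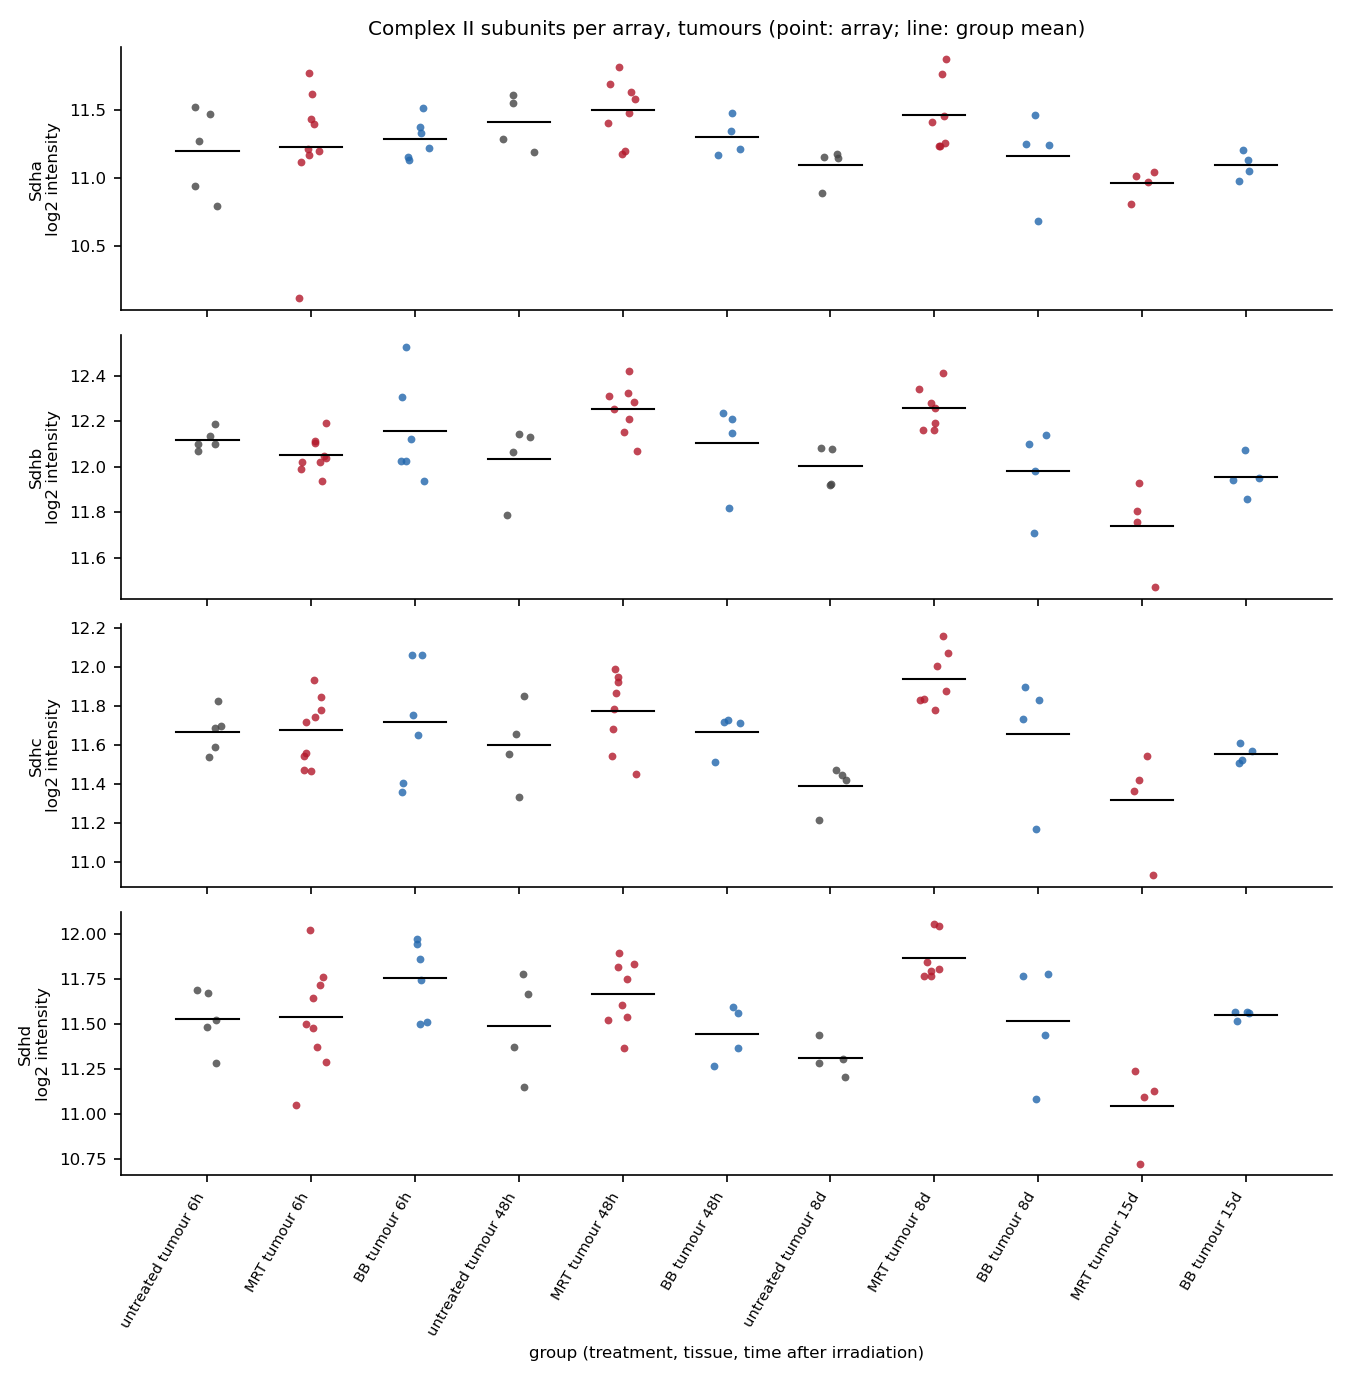
Log2 intensity (vertical axes) of Sdha, Sdhb, Sdhc and Sdhd in every tumour array by group (horizontal axis; grey untreated, red MRT, blue BB); lines are group means. MRT tumours at 8 d lie above untreated tumours at 8 d in all 4 genes, and MRT tumours at 15 d lie below MRT tumours at 8 d.

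In complex III 2 of the 3 core subunits fell, and Uqcrc1 (-0.10 ± 0.10, adjusted p = 0.495) was not called. Uqcrfs1 stood at 12.00 to 12.26 at 8 d and at 11.34, 11.56, 11.61 and 11.62 at 15 d, without overlap (-0.60 ± 0.08, adjusted p = 1.97e-07, limma). Uqcrc2 stood at 11.58 to 12.14 and then at 11.01, 11.03, 11.07 and 11.41 (-0.67 ± 0.13, adjusted p = 0.000256; its other probe set gave -0.88). The complex I core subunits Ndufs1 (-0.51 ± 0.17) and Ndufs3 (-0.47 ± 0.16) and the stalk subunit Atp5pb (-0.38 ± 0.09) fell as well. Both complex I calls were lost without rats 37 and 38.

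Small accessory subunits made up most of the rise. Atp5pf stood at 11.90 to 12.37 at 8 d and at 12.40, 12.86, 13.00 and 13.14 at 15 d (0.71 ± 0.12, adjusted p = 5.5e-05, limma). Its lowest value at 15 d was just above the highest at 8 d. Ndufc1 (0.51 ± 0.10), Ndufa12 (0.54 ± 0.12), Atp5me (0.53 ± 0.13), Cox7b (0.51 ± 0.15) and Uqcrq (0.40 ± 0.10) rose without overlap. The pseudogene Cox6c-ps1 rose by 0.87 ± 0.18 and Cox6c by 0.33 ± 0.08. Short probes may not tell such similar sequences apart, so the pseudogene's value is uncertain.

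Of the tumour isoforms only some returned. Ndufa4l2 stood at 7.35, 8.29, 8.90 and 9.43 in MRT tumours at 15 d, above all 7 at 8 d (2.28 ± 0.32, adjusted p = 2.06e-06, limma), and was called under all 5 alternatives. Cox7b2 rose by 1.57 ± 0.58 (adjusted p = 0.0375), a call lost with the neuron covariate and without rats 37 and 38. Cox6b2 stood at 4.70, 4.81, 5.04 and 5.04 and was not called, at the level of MRT tumours at 8 d. Over the interval 8 of 10 hypoxia targets rose (median 1.26), 8 of 9 tumour and mitosis markers rose (median 1.61), and 3 of 19 neuron markers fell. Of the 16 members that fell in untreated tumours between 6 h and 8 d, 2 rose here (Ndufb2 and Ndufb4, 2 of 23) and 1 fell (Ndufa9, 1 of 13). These comparisons share no arrays.

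In BB tumours 0 members were called between 8 d and 15 d (limma; 14 at an unadjusted p under 0.05), where 1.7% of all genes were called. The hypoxia targets rose in 9 of 10 cases (median 1.53). Ndufa4l2 stood at 7.30, 7.83, 8.02 and 8.14 at 15 d and Cox6b2 at 5.32, 5.36, 5.39 and 5.78. Without the BB tumour of rat 57 at 8 d, the count was 4 higher and 1 lower.

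MRT and BB tumours at 15 d differed in 2 members higher and 5 lower after MRT, where 3.05% of all genes were called, 1.65% higher and 1.4% lower. Uqcrfs1 stood at 11.34, 11.56, 11.61 and 11.62 after MRT and at 11.95, 12.01, 12.05 and 12.06 after BB. Uqcrc2 stood at 11.01, 11.03, 11.07 and 11.41 against 11.70, 11.76, 11.78 and 11.81. Both complex III core subunits were lower after MRT without overlap. The differences were -0.49 ± 0.08 for Uqcrfs1 (adjusted p = 0.000483, limma) and -0.63 ± 0.15 for Uqcrc2 (adjusted p = 0.0106), and both held on leaving out any single array. Uqcrc2 lost its call when its probe sets were averaged (adjusted p = 0.0686). Sdhd (-0.51 ± 0.15), Atp5f1a (-0.38 ± 0.10) and Atp5pb (-0.35 ± 0.10) were lower, and Cox5b (0.50 ± 0.13) and Ndufa3 (0.67 ± 0.18) higher. The split turned to 6 higher and 2 lower after quantile normalization (2.89% of all genes called). With a common median it turned to 0 higher and 7 lower (3.57%). The other splits below came from leaving out single arrays. It was 0 higher and 2 lower without the MRT tumour of rat 41 or the BB tumour of rat 58, 59 or 60. It was 0 higher and 3 lower without rat 43, 1 higher and 3 lower without rat 61, and 6 higher and 4 lower without rat 42.

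In the contralateral hemisphere the 6 h and 8 d counts also rest on the array of rat 18, through the shared estimate of spread. At 6 h after MRT 1 member was lower, against 8.22% of all genes. This was Ndufa4l2, at 6.36, 6.38, 6.49, 6.88 and 7.23 in untreated rats and 5.61 to 6.83 (median 6.17) in 9 MRT rats (-0.52 ± 0.17, adjusted p = 0.0496, limma), a call lost without the untreated rat 2, 3 or 4. Without rat 5 the count was 1 higher and 1 lower. At 6 h after BB 2 members were higher and 9 lower, where 21.6% of all genes were called. Ndufa4l2 (-0.77 ± 0.19) and Cox4i1 (-0.50 ± 0.13) were lower. Ndufs8, a core iron-sulfur subunit of complex I, stood at 10.48, 10.48, 10.54, 10.54 and 10.87 in untreated and 9.64 to 10.27 (median 10.17) in 6 BB rats. It was lower without overlap (-0.54 ± 0.11, adjusted p = 0.000222), while Ndufaf4 (0.43 ± 0.11) and Sdhaf2 (0.48 ± 0.11) were higher. Without the untreated rat 3 the BB count was 2 higher and 4 lower. Leaving out rat 18, which stands in neither 6 h group, gave 3 higher and 1 lower after MRT (12.2% of all genes called) and 9 higher and 16 lower after BB (31.8%).

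At 8 d 0 members were called after MRT (limma; 10 at an unadjusted p under 0.05), where 7.91% of all genes were called. After BB 1 was higher and 1 lower, against 5.94%. The lower one was Cox4i1, at 12.53, 12.63, 12.82 and 12.82 in untreated and 12.02, 12.04, 12.12 and 12.47 in BB rats (-0.53 ± 0.15, adjusted p = 0.0227), and the higher one Ndufaf4 (0.44 ± 0.13). The BB count was 0 without untreated rat 28 or 30 or BB rat 54, 55 or 57, and 2 higher and 2 lower without rat 56. The MRT count was 1 higher without untreated rat 39 and 2 higher without rat 29. Without rat 18 the counts were 6 higher and 0 lower after MRT (13% of all genes called), and 3 higher and 3 lower after BB (12.1%).

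At 48 h the contralateral counts rest on rat 18. After MRT 17 members were higher and 12 lower, where 32.2% of all genes were called, 13.2% higher and 19% lower, and after BB 8 were higher and 19 lower, against 21.6%. Without rat 18 these counts were 0 higher and 1 lower after MRT (8.54% of all genes called) and 0 higher and 3 lower after BB (3.52%). The MRT count was 26 higher and 18 lower without rat 16. The BB count was 17 higher and 24 lower without rat 16 and 21 higher and 25 lower without rat 17. It was 2 higher and 8 lower, 1 higher and 2 lower, and 1 higher and 8 lower without BB rat 50, 51 and 52. A common median gave 13 higher and 29 lower after MRT (41.7% of all genes called). Ndufab1 (0.85 ± 0.34 after MRT) turned to -0.22 without rat 18. Cox7a1, the muscle form of a complex IV subunit, was lower after MRT (-0.54 ± 0.11) and after BB (-0.59 ± 0.14), and kept its call without rat 18 in both. Ndufa13 (-0.50 ± 0.12) and Atp5me (-0.33 ± 0.10) kept theirs after BB.

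Between MRT and BB hemispheres the counts were 2 higher and 1 lower after MRT at 6 h (5.39% of all genes), 0 at 48 h (limma; 1.94% of all genes, 6 members at an unadjusted p under 0.05), 2 higher at 8 d (3.02%) and 3 higher at 15 d (5.87%). Without rat 18 they were 12 higher and 1 lower (13.8% of all genes), 1 higher (3.81%), 4 higher (5.63%) and 11 higher (11.4%). Cox4i1 was the member called at both late times. At 15 d it stood at 12.76, 12.93, 12.98 and 12.99 after MRT and at 12.25, 12.38, 12.46 and 12.53 after BB, without overlap (0.51 ± 0.15, adjusted p = 0.0288, limma). At 8 d its difference was 0.50 ± 0.14 (adjusted p = 0.0231). Ndufb10 (0.46 ± 0.12) and Ndufb7 (0.46 ± 0.12), both of the membrane arm of complex I, were higher at 15 d, and Cox6a2 (0.77 ± 0.23) at 8 d. Ndufs8 (0.30 ± 0.09) and Atp5f1d (0.36 ± 0.11) were higher and Sdhaf2 (-0.32 ± 0.10) lower at 6 h. At 8 d the count was 0 without BB rat 54, 55 or 57 and 1 without rat 56. At 15 d it was 0 without MRT rat 41 or 42 or BB rat 59 and 5 without MRT rat 40, and the BB hemispheres of that time are those with tumour markers up to 9.64.

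Whether irradiation acted differently in tumour and hemisphere was tested as the difference of the effects, over all 115 arrays. At 6 h 0 members were called for MRT (limma; 2 at an unadjusted p under 0.05; 0.886% of all genes, 0.12% higher and 0.767% lower) and 0 for BB (14 at an unadjusted p under 0.05; 1.53% of all genes, 0.689% higher and 0.837% lower). With the rat as a replicate block, 3 members were called higher for BB at 6 h (4.26% of all genes called). At 48 h 2 were called for MRT (2.48% of all genes, 1.44% higher and 1.03% lower), Cox6a2 (1.65 ± 0.33, adjusted p = 0.0017) and Ndufa13 (0.48 ± 0.13, adjusted p = 0.0343), both more positive in tumour. For BB 4 were higher and 1 lower (5.7% of all genes, 4.46% higher and 1.24% lower), among them Ndufa13 (0.89 ± 0.16) and Cox6a2 (1.95 ± 0.39). That count was 7 higher and 3 lower with the replicate block (12.5% of all genes called). Without rat 18, Cox6a2 remained called for MRT (0.317% of all genes called), and Cox6a2 and Ndufa13 for BB (0.619%). Leaving out another untreated hemisphere, so that rat 18 weighed more, gave 5 higher and 10 lower (rat 15), 4 and 10 (rat 16) and 5 and 9 (rat 17) for MRT. For BB these were 6 and 4, 8 and 6, and 7 and 7. The MRT count was 1 without the untreated tumour of rat 16. The BB count was 3 higher without that of rat 17, 2 higher without the BB hemisphere of rat 50 or 52, and 2 higher and 1 lower without rat 51.

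At 8 d the microbeam effect differed between the tissues in 3 members more positive and 14 more negative in tumour, where 37% of all genes were called, 15.4% higher and 21.6% lower. The more negative ones included Ndufa4l2 (-2.34 ± 0.39, adjusted p = 1.65e-06, limma), Cox6b2 (-2.13 ± 0.34, adjusted p = 6.95e-07), Cox7b2 (-2.20 ± 0.63) and Atp5pf (-0.69 ± 0.16). The 3 more positive ones were the complex II subunits Sdhd (0.59 ± 0.16, adjusted p = 0.00297), Sdhc (0.45 ± 0.16, adjusted p = 0.0197) and Sdha (0.50 ± 0.20, adjusted p = 0.0442). Without rats 37 and 38 the count was 1 higher and 14 lower (28.2% of all genes called). Sdhd (0.52 ± 0.17, adjusted p = 0.0142, limma) kept its call, while Sdhc (0.38, adjusted p = 0.0714) and Sdha (0.36, adjusted p = 0.188) lost theirs. A common median gave 5 higher and 8 lower (35.8% of all genes called), and leaving out rat 18 gave 3 higher and 19 lower (40.7%). For BB 3 members were more negative (7.76% of all genes, 2.24% higher and 5.52% lower), Cox6b2 (-1.50 ± 0.37), Ndufa4l2 (-1.52 ± 0.43) and Sdhaf2 (-0.59 ± 0.18). The BB count was 0 higher and 1 lower without the untreated tumour of rat 27 or the BB tumour of rat 55, and 1 higher and 4 lower without that of rat 57. The tumour side of these tests uses the same arrays as the comparisons within tumours above.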

How the data were processed

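Gene expression was measured on Affymetrix rat 3' arrays in 59 tumour and 56 contralateral samples from 60 rats, 55 of which gave both tissues. The deposited values are intensity on a linear scale, as whole numbers from 7 to 27837, already normalized by the authors. Per the submitters' processing notes, Affymetrix Expression Console was used, with MAS5 and RMA for most arrays and RMA alone for the 35 BB arrays. Array medians ran from 117 to 165, and the number of arrays limits the precision.

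Values were taken to log2 with no further scaling. Of 31099 probe sets, 57 controls, 436 with several symbols and 9780 with none were left out, including 7 with several symbols that named a member. For 6 of these (Atp5mc1, Atp5mc2, Cox7a2, Ndufa10, Ndufs5 and Uqcrb) no other probe set stood in the set, while Cox5a had another. The 6 genes therefore entered no count or test. The brightest probe set stood for each of 14217 genes. Tests used limma 3.58.1 (R 4.3.3), with moderated statistics and a trend in the variance, over all arrays of a tissue or, across tissues, over all 115, with Benjamini-Hochberg adjustment over all genes. The fit was tested on simulated data. Within a tissue, p-values measure the spread between these rats. Across tissues the main fit took both arrays of a rat as independent.

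Members and lists were chosen with earlier results of these data known. The genes named were fixed core subunits and isoform pairs, the 3 called members with the highest and the 3 with the lowest moderated t of a comparison, and the extremes of each complex between tissues. Other genes named were chosen after their values were seen. Tumour and hemisphere of the same rat were compared, and their deviations correlated above 0.1 in 38 of 55 rats (median 0.19, against -0.04 between rats), so the rat was also fitted as a block. Alternatives were quantile normalization, a common median, omission of the dimmest 30% of genes, the mean of all probe sets, neuron markers as a covariate, only the compared groups and each small group's arrays left out. The omission of rat 18, that of rats 37 and 38, and the Gapdh covariate were chosen after seeing the data.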

Additional observations from a re-analysis of the deposited data

Results flagged for a closer look

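The highest or lowest sample of a group stood apart in 30 of 336 tests, each of 1 of 16 genes and complexes in a group of 4 to 10 samples, where chance flags about 1 in 20. The ratio given is the gap to the nearest sample over the whole range of the group, on log2 values. Rat 10 was the lowest for Sdha in MRT contralateral samples at 6 h (11.53 against 11.91 to 12.13, ratio 0.625) and Sdha in MRT tumours at 6 h (10.11 against 11.12 to 11.78, ratio 0.605). Rat 10 was the lowest for Uqcrc2 in MRT contralateral samples at 6 h (11.77 against 12.20 to 12.39, ratio 0.687) and Uqcrc2 in MRT tumours at 6 h (10.97 against 11.79 to 12.28, ratio 0.629). Rat 10 was the lowest for Ndufs1 in MRT tumours at 6 h (10.03 against 10.82 to 11.52, ratio 0.525). Rat 10 was the highest for Cox6b2 in MRT contralateral samples at 6 h (6.09 against 4.81 to 5.32, ratio 0.598) and Cox6b2 in MRT tumours at 6 h (5.73 against 4.86 to 5.09, ratio 0.736). Rat 10 was the highest for Cox5a in MRT tumours at 6 h (8.98 against 7.18 to 7.98, ratio 0.558). Rat 18 was the lowest for the mean of common subunits in untreated contralateral samples at 48 h (11.40 against 12.06 to 12.09, ratio 0.952) and the mean of ATP synthase subunits in untreated contralateral samples at 48 h (12.11 against 12.63 to 12.66, ratio 0.94). Rat 18 was the lowest for the mean of complex I subunits in untreated contralateral samples at 48 h (10.62 against 11.64 to 11.71, ratio 0.934) and Ndufs1 in untreated contralateral samples at 48 h (7.48 against 10.95 to 11.48, ratio 0.868). Rat 30 was the lowest for Sdha in untreated tumours at 8 d (10.89 against 11.15 to 11.17, ratio 0.911) and Uqcrfs1 in untreated contralateral samples at 8 d (12.06 against 12.21 to 12.22, ratio 0.905). Rat 30 was the lowest for Ndufs1 in untreated tumours at 8 d (10.50 against 10.70 to 10.73, ratio 0.899). Rat 2 was the lowest for Cox7b2 in untreated contralateral samples at 6 h (5.00 against 5.32 to 5.43, ratio 0.755) and Uqcrfs1 in untreated tumours at 6 h (11.93 against 12.05 to 12.07, ratio 0.881). Rat 56 was the lowest for Ndufa4l2 in BB contralateral samples at 8 d (6.00 against 6.30 to 6.34, ratio 0.894). Rat 56 was the highest for Uqcrc2 in BB contralateral samples at 8 d (12.28 against 11.95 to 12.00, ratio 0.872). Rat 58 was the lowest for Sdhd in BB tumours at 15 d (11.52 against 11.56 to 11.57, ratio 0.883). Rat 58 was the highest for Cox6b2 in BB tumours at 15 d (5.78 against 5.32 to 5.39, ratio 0.847). Rat 5 was the lowest for Cox7b2 in untreated tumours at 6 h (5.91 against 7.83 to 8.52, ratio 0.736). Rat 6 was the highest for Uqcrfs1 in MRT tumours at 6 h (12.24 against 11.95 to 12.06, ratio 0.63). Rat 16 was the highest for Ndufa4l2 in untreated tumours at 48 h (8.50 against 6.87 to 7.12, ratio 0.847). Rat 32 was the lowest for Uqcrc2 in MRT contralateral samples at 8 d (11.74 against 12.04 to 12.16, ratio 0.709). Rat 40 was the lowest for the mean of complex II subunits in MRT tumours at 15 d (10.99 against 11.34 to 11.39, ratio 0.877). Rat 41 was the lowest for the mean of complex II subunits in MRT contralateral samples at 15 d (11.99 against 12.05 to 12.05, ratio 0.906). Rat 42 was the highest for Uqcrc2 in MRT tumours at 15 d (11.41 against 11.01 to 11.07, ratio 0.837). Rat 47 was the highest for Cox6b2 in BB tumours at 6 h (6.41 against 4.86 to 5.32, ratio 0.701). Rat 51 was the lowest for Sdhc in BB tumours at 48 h (11.51 against 11.71 to 11.73, ratio 0.915).

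The effect of irradiation differed between tumour and hemisphere, by a test of the difference in limma over all 115 arrays, for these members. Values are the tumour effect minus the hemisphere effect on the log2 scale with their standard error. For BB at 48 h these were Ndufs1 (-1.43 ± 0.42, adjusted p = 0.0313), Ndufb7 (0.63 ± 0.20, adjusted p = 0.0451), Cox5a (2.01 ± 0.58, adjusted p = 0.0272), Cox6a2 (1.95 ± 0.39, adjusted p = 0.00277) and Ndufa13 (0.89 ± 0.16, adjusted p = 0.000475). For BB at 8 d these were Cox6b2 (-1.50 ± 0.37, adjusted p = 0.00761), Ndufa4l2 (-1.52 ± 0.43, adjusted p = 0.0192) and Sdhaf2 (-0.59 ± 0.18, adjusted p = 0.0326). For MRT at 48 h these were Ndufa13 (0.48 ± 0.13, adjusted p = 0.0343) and Cox6a2 (1.65 ± 0.33, adjusted p = 0.0017). For MRT at 8 d these were Cox6b2 (-2.13 ± 0.34, adjusted p = 6.95e-07), Ndufa4l2 (-2.34 ± 0.39, adjusted p = 1.65e-06), Atp5pf (-0.69 ± 0.16, adjusted p = 0.00046), Cox6c (-0.42 ± 0.10, adjusted p = 0.000796), Cox6a1 (-0.45 ± 0.12, adjusted p = 0.00229) and Ndufb9 (-0.34 ± 0.09, adjusted p = 0.00321). Further members were Cox7b2 (-2.20 ± 0.63, adjusted p = 0.00431), Ndufa11 (-0.55 ± 0.16, adjusted p = 0.00529), Uqcr10 (-0.38 ± 0.12, adjusted p = 0.00915), Ndufv3 (-0.55 ± 0.18, adjusted p = 0.0121), Ndufa7 (-0.52 ± 0.18, adjusted p = 0.0166) and Sdhaf2 (-0.47 ± 0.16, adjusted p = 0.0184). Further members were Ndufaf8 (-0.60 ± 0.21, adjusted p = 0.022), Atp5pd (-0.36 ± 0.14, adjusted p = 0.0349), Sdha (0.50 ± 0.20, adjusted p = 0.0442), Sdhc (0.45 ± 0.16, adjusted p = 0.0197) and Sdhd (0.59 ± 0.16, adjusted p = 0.00297). At 48 h both tests use the array of rat 18, without which Ndufs1 was at -0.47 for BB. Without that array Ndufs1, Ndufb7 and Cox5a, here by its dim probe set, were not called for BB, nor was Ndufa13 for MRT. Cox6a2 kept its call in both tests, and Ndufa13 kept its call for BB. Without the MRT tumours of rats 37 and 38, Sdha (0.36, adjusted p = 0.188), Sdhc (0.38, adjusted p = 0.0714) and Ndufaf8 (-0.50, adjusted p = 0.078) were not called for MRT at 8 d, while Sdhd (0.52, adjusted p = 0.0142) was.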

How the results depend on the processing

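Counts are of called members, higher and lower. Averaging all probe sets kept all 30 counts within 1.5 times, and dropping the dimmest 30% of genes 27. Quantile normalization turned MRT against untreated tumour at 8 d to 30 (16 and 14) and MRT against BB tumour at 15 d to 8 (6 and 2), gave 4 for the MRT difference between tissues at 48 h, 1 for MRT tumour at 48 h, 0 for MRT against BB tumour at 8 d and 1 for MRT contralateral at 8 d. A common median gave 3 for the BB difference between tissues at 6 h, 1 for MRT tumour at 48 h, 37 for BB tumour at 6 h, 0 for MRT against BB tumour at 8 d, 1 for BB tumour between 8 d and 15 d, and 42 (13 and 29) for MRT contralateral at 48 h, reversed. Dropping dim genes gave 1 for the BB difference at 8 d, 0 for MRT contralateral at 6 h and 5 for MRT against BB contralateral at 6 h. The neuron covariate gave 5 for BB tumour at 48 h, 17 at 8 d, 12 for MRT against BB tumour at 15 d, 2 for untreated tumour between 6 h and 8 d and 6 for BB tumour between 8 d and 15 d. Only the compared groups gave 1 for MRT tumour at 48 h, 0 for BB tumour at 6 h and 5 at 8 d. With the rat as replicate block the BB difference between tissues was 3 at 6 h and 10 at 48 h, and no other count moved beyond 1.5 times. Without rats 37 and 38, MRT against BB tumour at 8 d was 0. The cause of these changes was not tested.

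Without rat 18 the differences between tissues were 1 for MRT at 48 h, 4 for BB at 6 h and 2 at 48 h. MRT contralateral was 4 (3 and 1) at 6 h, 1 at 48 h, both reversed, and 6 at 8 d. BB contralateral was 25, 3 and 6, and MRT against BB contralateral 13, 1, 4 and 11 from 6 h to 15 d. Single members that reversed were Cox7b (-0.077), Ndufa2 (-0.032), Ndufab1 (-0.22) and Ndufb2 (-0.010) for MRT contralateral at 48 h without rat 18, whose highest values with another array left out were 0.78, 1.26, 1.22 and 0.94. Between tissues they were Atp5mpl (-0.12), Atp5pb (-0.058), Cox6a1 (-0.12), Ndufa6 (-0.094), Ndufb9 (-0.14), Ndufs4 (-0.056) and Uqcr10 (-0.026) with a common median and Ndufa7 (-0.27) with averaged probe sets.

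With each array of a small group left out in turn, counts ran from 54 to 62 between tissues, 0 to 0 (6 h), 1 to 15 (48 h) and 13 to 17 (8 d) for the MRT difference and 0 to 0, 2 to 14 and 1 to 5 for the BB difference. In tumour they ran 0 to 0, 1 to 3 and 19 to 24 for MRT, 13 to 20, 0 to 3 and 4 to 13 for BB, and 0 to 0 (48 h), 0 to 4 (8 d) and 2 to 10 (15 d) for MRT against BB. Over time they ran 13 to 21 for untreated, 24 to 41 for MRT and 0 to 5 for BB tumour. Contralaterally they ran 0 to 2, 1 to 44 and 0 to 2 for MRT, 6 to 12, 3 to 46 and 0 to 4 for BB, and 0 to 0 (48 h), 0 to 1 (8 d) and 0 to 5 (15 d) for MRT against BB. Reversed were the MRT difference at 48 h without contralateral rat 15 (15), 16 (14) or 17 (14), BB tumour at 48 h without rat 17 (1) or 50 (1) and MRT against BB tumour at 15 d without rat 42 (10). Dim isoforms lie near background, which limits their fold changes.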
